A study of Arabidopsis thaliana with 19 samples.

Results

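The segment described here is a run of 343 neighbouring genes of chromosome 3, from AT3G25400 to AT3G29570, among the 21313 genes of the table. It was selected on the expression values of NILDOG6, a near isogenic line (NIL) of Arabidopsis thaliana, set against those of its background accession Landsberg erecta (Ler). Members are the table's genes with a locus code inside that span, except 8 codes that the selection left out, 7 of which are rows of the table. Because NILDOG6 expression values set the span, each NILDOG6 value below is a description without a test. The tests below compare the other NILs with Ler. They are not free of the values behind the choice, because the same 5 Ler arrays enter every comparison and the NILDOG6 arrays enter the estimate of the spread.

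RNA from freshly harvested, dormant seeds imbibed for 24 h was hybridised to 19 ATH1 GeneChips, single-colour arrays that carry short probes for the genes of the Columbia accession. Ler and NILDOG1 had 5 arrays each, and NILDOG2, NILDOG3 and NILDOG6 had 3 each. NILDOG6 carries an introgression from Kas-2 and the other 3 NILs carry introgressions from Cvi, each in a Ler background and each represented by 1 line. Each replicate was RNA from bulked seeds of several plants, and values are log2 expression after robust multi-array averaging (RMA) by the authors. A difference of 1 is a doubling or a halving of the signal. The 10 seed maturation markers examined averaged between 13.07 and 13.42 in every array, at the top of the scale. The 3 of 6 listed green tissue markers that were in the table averaged between 3.54 and 4.30.

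A NIL holds a short stretch of a donor genome in the genome of another accession, so that trait differences can be tied to that stretch. The DOG loci (DELAY OF GERMINATION) were mapped by their effect on how long dry seed must be stored before it germinates. Expression of a gene inside an introgressed stretch can differ from the background line through its own donor allele, and genes anywhere else in the genome can differ through the action of the introgressed genes. Levels on these arrays cannot by themselves separate the 2 cases. The probes are those of Columbia, and whether donor sequence under a probe changed any signal was not tested.

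NILDOG6 replicate 1 is given apart from replicates 2 and 3 throughout, because it lay closer to Ler than to them. Over all genes it correlated with single Ler arrays at r = 0.981 to 0.989 and with replicates 2 and 3 at 0.98 and 0.978. Replicates 2 and 3 correlated with each other at 0.988, and Ler arrays among themselves at 0.978 to 0.991. The array is labelled NILDOG6 and is treated as such, but whether that label holds was not tested, and each value over all 3 NILDOG6 arrays rests on it. In replicates 2 and 3, 18 members (5.25%) lay outside the range of the 5 Ler arrays in both arrays and at least 1 from the Ler mean, 11 of them lower and 7 higher. Over the whole table the same count was 2.39%. Lower members made up 3.21% of the segment against 2.02% of the table, and higher members 2.04% against 0.366%. The split by direction depended on the scaling. With each array centred on its median, 18 members met the criterion again, 11 higher and 7 lower, and with quantile normalization 17 did, 10 higher and 7 lower. Over the table, lower genes stayed in the majority, 296 lower and 150 higher after centring against 431 and 78 as deposited. Leaving out 1 Ler array or 1 of the 2 NILDOG6 arrays gave 15 to 26 members (4.37% to 7.58%), with 2.13% to 3.53% of all genes. These shares describe the contrast that set the segment, and nothing is read from them. Most members were close to Ler. The median absolute difference was 0.188 over the members and 0.205 over all genes, and 78.1% of the members differed by less than 0.5, against 84.0% of all genes. A further 76 members had both arrays outside the Ler range with a difference between -0.98 and 0.97. The other 249 members did not have both arrays outside it and ranged from -1.21 to 0.72. Without the requirement of at least 1, 94 members (27.4%) had both arrays outside the Ler range, 51 higher and 43 lower, against 23.6% of all genes.

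**Figure D1:**
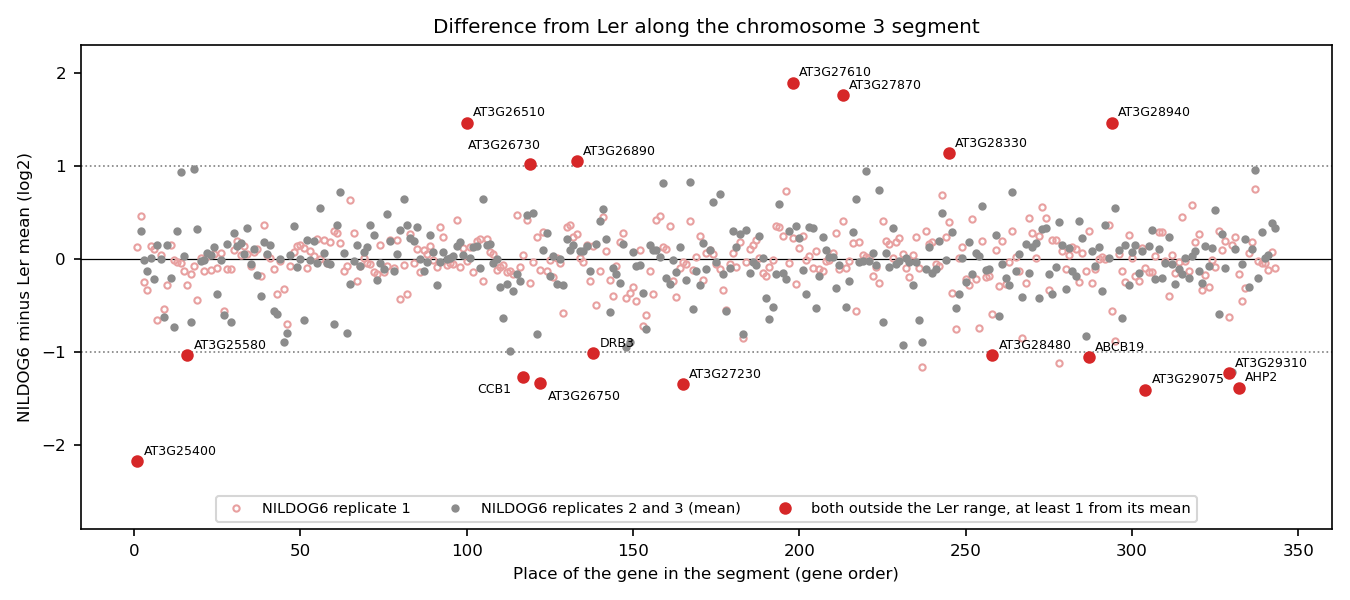
Difference from the Ler mean (log2, vertical axis) of the 343 members in gene order (horizontal axis), for the mean of NILDOG6 replicates 2 and 3 (filled) and for replicate 1 (open). The 18 members outside the Ler range in both arrays and at least 1 from its mean (large points, named) are spread from the first member, AT3G25400 at -2.17, to AHP2 at -1.38 near the end, and the highest is AT3G27610 at 1.9.

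The 18 members were spread along the segment. No 2 of them were neighbours in gene order, and the step from one to the next ran from 2 to 84 genes. Cut into 5 blocks of nearly equal size, the segment held 2, 6, 2, 3 and 5 of them in order. The block from AT3G26130 to AT3G26932, with 6, held 3 higher and 3 lower members. The first block held lower members alone, AT3G25400 and AT3G25580. The segment was not set off from its surroundings by this count. Of the 343 genes just before it, 19 (5.54%) met the same criterion, and of the 343 just after it, 14 (4.08%). Chromosome 3 outside the segment had 119 of 3894 genes (3.06%), and the other chromosomes had 1.91% to 2.40%.

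**Figure D2:**
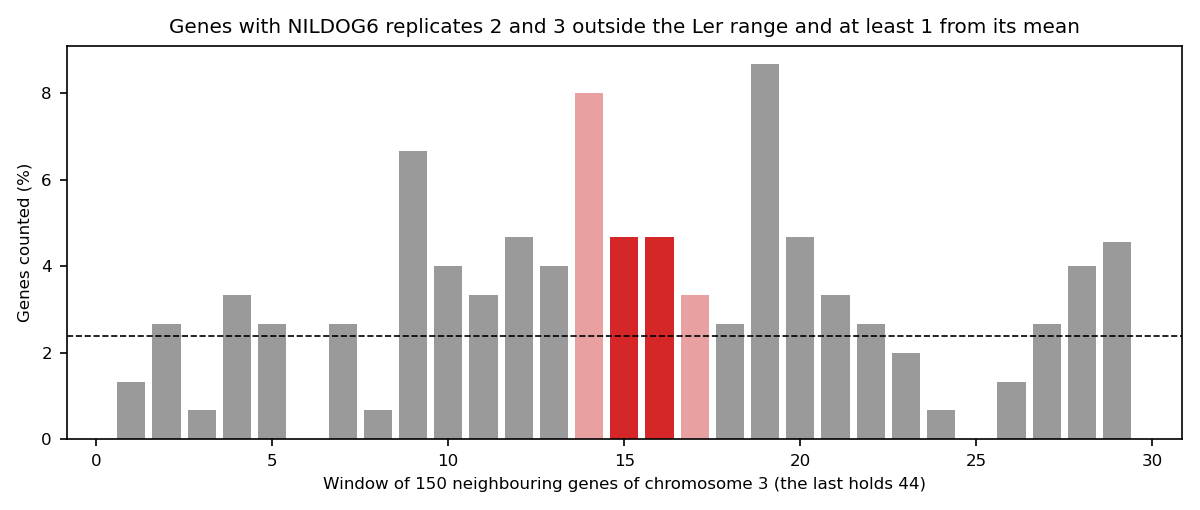
Share of genes (%, vertical axis) with NILDOG6 replicates 2 and 3 outside the Ler range and at least 1 from its mean, in successive windows of neighbouring genes along chromosome 3 (horizontal axis, window number; dashed line, 2.39% over the whole table). Dark bars are windows mostly made of members and pale bars windows with some members. The 2 dark windows stand at 4.67% each, and the 2 tallest bars, 8.67% and 8.0%, are a window beyond the segment and the window that ends at the first member.

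Among the members that were lower in NILDOG6 replicates 2 and 3, AT3G25400 had the largest difference of the segment. Its Ler arrays read 6.36, 5.93, 6.27, 6.46 and 6.32, and NILDOG6 replicates 2 and 3 read 4.11 and 4.08. NILDOG6 replicate 1 read 6.40. Replicates 2 and 3 were thus below all other arrays of the series, whereas replicate 1 lay within the Ler range. The NILDOG3 arrays, at 5.71, 5.17 and 5.73, were also below the Ler range, and the NILDOG1 arrays (5.71 to 6.41) and NILDOG2 arrays (6.04 to 6.87) overlapped it. RefSeq gives AT3G25400 no name beyond its code, as is the case for 211 of the 340 members matched to a RefSeq locus.

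AT3G26750, another unnamed gene, was flat in the rest of the series. Its 5 Ler arrays read 6.90, 6.96, 7.06, 6.90 and 6.68, and the arrays of NILDOG1, NILDOG2 and NILDOG3 lay between 6.46 and 7.16. NILDOG6 replicates 2 and 3 read 5.21 and 5.92, below every other array, and replicate 1 read 6.79. AT3G29075 showed the same layout. Its Ler arrays spanned 4.51 to 5.31, NILDOG6 replicates 2 and 3 read 3.3 and 3.52, and replicate 1 read 4.73.

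AT3G29310 differed from these in replicate 1. Ler read 5.51, 5.71, 5.29, 5.41 and 5.52, and the 3 NILDOG6 arrays read 4.87, 3.98 and 4.55. It was the single lower member for which all 3 NILDOG6 arrays were outside the Ler range with a mean difference of at least 1. NILDOG1 arrays spanned 5.3 to 5.65, NILDOG2 arrays 5.63 to 6.18 and NILDOG3 arrays 5.37 to 5.73, none of them below the Ler range. AT3G28480 was lower in all 3 arrays as well. Its NILDOG6 values were 5.40, 4.89 and 5.03 against 5.74 to 6.26 in Ler, with replicate 1 the closest to Ler. Unlike AT3G29310, it also reached below the Ler range in NILDOG1 (5.54 to 6.16), NILDOG2 (5.5 to 5.8) and NILDOG3 (5.64 to 5.8).

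CCB1 and DRB3 were the lower members in this list with a named product that were not also low in NILDOG1 or NILDOG3 in every array. CCB1 encodes a chloroplast factor needed to attach haem to the cytochrome b6f complex. Ler read 7.99, 6.89, 7.97, 7.24 and 6.90 for CCB1, and NILDOG6 replicates 2 and 3 read 6.43 and 5.85, with replicate 1 at 7.45. The Ler arrays themselves fell into a higher and a lower set for this gene. NILDOG2 (6.85 to 6.92) and NILDOG3 (6.81 to 6.90) lay around the lower set, and both reached below the lowest Ler array, 6.89. DRB3 encodes a double-stranded RNA-binding protein. Its Ler arrays spanned 6.1 to 6.69, NILDOG6 replicates 2 and 3 read 5.53 and 5.35, and replicate 1 read 6.60.

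AT3G27610 led the higher members. Ler read 3.04, 2.55, 3.03, 3.12 and 2.85, and NILDOG6 replicates 2 and 3 read 4.58 and 5.06. Replicate 1 read 3.15, which was 0.23 above the Ler mean and just past the highest Ler array. NILDOG1 arrays (2.5 to 3.47) and NILDOG2 arrays (3.05 to 3.42) reached above replicate 1, and NILDOG3 arrays lay between 2.99 and 3.11. The Ler values of this gene were close to or below the lower quartiles of the arrays, which ran from 3.11 to 3.27, and without detection calls such a level cannot be told from background. The difference of 1.9 is therefore uncertain in size.

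AT3G27870 stood well above that level in every array. Ler read 5.19, 5.82, 5.40, 5.21 and 5.53, NILDOG6 replicates 2 and 3 read 7.11 and 7.30, and replicate 1 read 5.84. The difference in replicates 2 and 3 was 1.77, and replicate 1 lay just above the highest Ler array. NILDOG1 replicates 2 and 3, at 5.90 and 5.98, were above the Ler range too, whereas NILDOG2 and NILDOG3 arrays lay between 5.26 and 5.73.

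AT3G28940 was higher in replicates 2 and 3 and lower in replicate 1. Ler read 5.77, 6.37, 6.34, 5.61 and 6.23, replicates 2 and 3 read 7.67 and 7.39, and replicate 1 read 5.51, below each Ler array. The NILDOG6 arrays therefore lay on both sides of Ler. The difference in replicates 2 and 3 was 1.47, and that of the NILDOG1, NILDOG2 and NILDOG3 means was -0.13, -0.23 and -0.03.

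AT3G26510 reached 9.42 and 9.18 in replicates 2 and 3 against 7.12 to 8.37 in Ler, with 7.81 in replicate 1. NILDOG1 (8.01 to 8.72) and NILDOG3 (8.21 to 8.98) tended above Ler as well, and NILDOG2 (7.15 to 7.68) lay within it. The other 3 higher members of at least 1 were AT3G28330 at 1.14, AT3G26890 at 1.06 and AT3G26730 at 1.03. NILDOG3 arrays were above the Ler range for AT3G28330 (4.16 to 4.45 against 3.79 to 4.12) and AT3G26730 (8.09 to 8.34). For AT3G26730 the Ler mean rested partly on replicate 3, which read 6.68 against 7.66 to 8.01 in the other Ler arrays.

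Higher members with a named product came just under a difference of 1. RIK, a KH-domain protein, read 6.62, 6.85 and 6.80 in the 3 NILDOG6 arrays and 4.94 to 6.34 in Ler. Its 3 NILDOG6 arrays lay together above the Ler range. The size of the difference depended on the Ler arrays used: over all 3 NILDOG6 arrays it fell from 0.90 to 0.56 with Ler replicates 1 to 3 only. KLCR2, a kinesin light chain-related protein, read 4.07, 4.60 and 5.38 in NILDOG6 against 3.89 to 4.13 in Ler, and NIK2, a receptor-like kinase, read 3.18, 4.45 and 3.85 against 3.01 to 3.43. In both, replicate 1 was within the Ler range. The Ler values of NIK2 were near the lower quartiles of the arrays (3.11 to 3.27), where a level cannot be told from background. GTE8, a bromodomain protein, read 8.03, 8.38 and 8.52 against 7.24 to 7.93 in Ler.

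**Figure D3:**
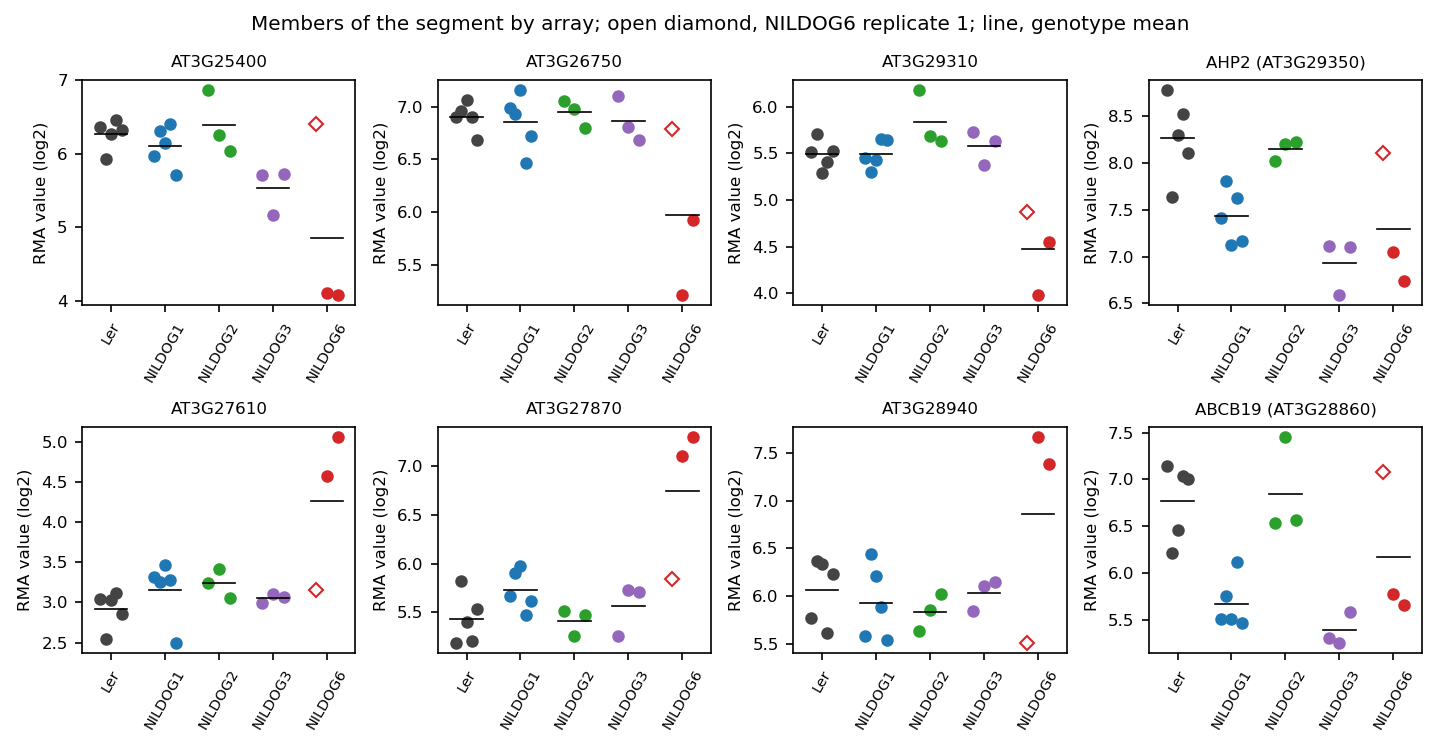
RMA value (log2, vertical axis, one scale per panel) of 8 members in each array of the 5 genotypes; points are arrays, the line is the genotype mean, and the open diamond is NILDOG6 replicate 1. NILDOG6 replicates 2 and 3 lie apart from Ler in all 8 panels; for AT3G25400 they read 4.11 and 4.08 with replicate 1 at 6.40, and for AT3G29310 replicate 1 lies between the groups at 4.87.

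NILDOG6 replicate 1 was set on a scale running from Ler to replicates 2 and 3 for each of the 24 members named from this contrast, the 12 lowest and the 12 highest with both arrays outside the Ler range. With 0 at the Ler mean and 1 at the mean of replicates 2 and 3, its median position was 0.07, with a range from -0.38 for AT3G28940 to 0.79 for RIK. It was inside the Ler range for 15 of the 24, close to its share over all genes, 65.1%, and nearer to the Ler mean for 21. The 24 were chosen because replicates 2 and 3 were far from Ler, so the position of replicate 1 on this scale is not independent of that choice. AT3G28480, AT3G29310 and RIK were the 3 exceptions. Replicates 2 and 3, which define the 1 of the scale, had medians of 0.95 and 1.05. The median position was -0.11 to 0.18 in the Ler arrays, 0.01 to 0.22 in NILDOG1, 0.02 to 0.12 in NILDOG2 and 0.20 to 0.36 in NILDOG3, so replicate 1 fell within the span of the Ler arrays and below all 3 NILDOG3 arrays.

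**Figure D4:**
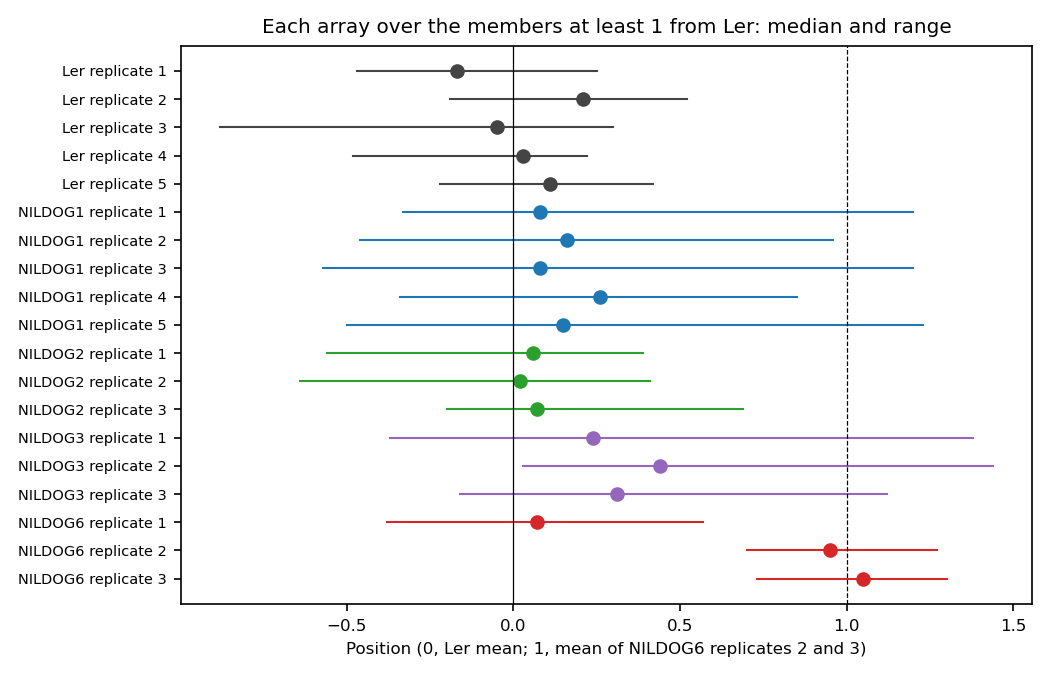
Position of each of the 19 arrays (rows) between the Ler mean (0) and the mean of NILDOG6 replicates 2 and 3 (1) over the 18 members at least 1 from Ler; points are medians and lines run from the lowest to the highest member. NILDOG6 replicate 1 has its median at 0.07, beside the Ler arrays, whereas replicates 2 and 3 have 0.95 and 1.05, partly because they define the scale.

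Over all 343 members, the median absolute difference between replicate 1 and single Ler arrays was 0.173 to 0.249, and between pairs of Ler arrays it was 0.176 to 0.243. Replicates 2 and 3 differed from single Ler arrays by 0.261 to 0.318, from each other by 0.216, and from replicate 1 by 0.268 and 0.266. Replicate 1 alone was outside the Ler range and at least 1 from its mean for 2 members (0.583%), against 0.68% of all genes. Both were lower, against 0.526% of all genes. These 2 were PMZ, a stress-associated zinc finger protein, and CYP81D11, a cytochrome P450. PMZ read 3.12, 3.06 and 3.74 in NILDOG6 and 3.72 to 4.92 in Ler, with all NILDOG1, NILDOG2 and NILDOG3 arrays at 4.11 or lower. CYP81D11 read 3.53 in replicate 1 but 5.10 and 4.98 in replicates 2 and 3, with Ler from 4.31 to 4.82, so the NILDOG6 arrays again lay on both sides of Ler.

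With all 3 NILDOG6 arrays together, 3 members (0.875%) had every array outside the Ler range and a mean difference of at least 1, against 0.366% of all genes. They were AT3G27610 and AT3G27870, which were higher (0.0891% of all genes), and AT3G29310, which was lower (0.277%). Calls in limma are again only described here. For NILDOG6 with all 3 arrays, no member and no gene of the table (0.0%) passed an adjusted p of 0.0001. For the same contrast limma put 63 of 343 members and 4011 of 21313 genes under an unadjusted p of 0.05. At an adjusted p of 0.05 it called 13 members (3.79%), 7 higher and 6 lower, against 2.36% of all genes, 0.952% higher and 1.4% lower. After centring it called 13 higher and 5 lower members, with 566 higher and 250 lower genes over the table in place of 203 and 299, so the balance of directions depended on the scaling. Without replicate 1 it called AT3G25400, AT3G27610 and AT3G27870 at 0.0001 (0.875% against 0.0985% of all genes, 0.0516% higher and 0.0469% lower). At 0.05 it then called 40 members, 19 higher and 21 lower (11.7% against 8.39% of all genes, 3.05% higher and 5.34% lower). The count at 0.05 was 0 without replicate 2 (against 0.192% of all genes) and 1 without replicate 3 (0.292% against 0.286%). Seed maturation markers averaged 13.07 in replicate 1, the lowest of the 19 arrays, and 13.35 to 13.40 in replicates 2 and 3. Whether this has a part in the position of replicate 1 was not tested.

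The other NILs, which were made for other DOG loci, were compared with Ler to ask whether the same members differ there too. The places of the introgressions were not used, so these comparisons are not read as Cvi against Kas-2 alleles of the members. Whether the segment lies in the Kas-2 introgression was not tested. All 3 comparisons share the 5 Ler arrays, so they are not independent of each other. At the adjusted p of 0.0001 in limma over all genes, no member was called in NILDOG1 (0.103% of all genes called), NILDOG2 (0.0657%) or NILDOG3 (0.0704%), nor in the F test over the 4 genotypes (0.305%). At an unadjusted p under 0.05 there were 27 of 343 members in NILDOG1, against 2317 of 21313 genes, and 19 in NILDOG2, against 1444. NILDOG3 had 45 members against 3651 genes, and the F test 42 against 3635. At an adjusted p of 0.05, limma called 1 member in NILDOG1, which was lower (0.292% against 1.17% of all genes, 0.807% lower), 0 in NILDOG2 (against 0.305%), 8 in NILDOG3 (2.33% against 2.88%) and 11 in the F test (3.21% against 4.35%). Of the 8 in NILDOG3, 2 were higher and 6 lower, against 0.68% and 2.2% of all genes. After centring, NILDOG3 had 4 higher and 6 lower members, with 446 higher and 390 lower genes over the table in place of 145 and 469. In NILDOG3 the share of members came above that of all genes without Ler replicate 1 (1.75% against 1.15%), Ler replicate 4 (2.04% against 1.54%) or NILDOG3 replicate 3 (1.75% against 1.16%), so no order between the 2 shares is read. The counts at 0.05 rested on single arrays. NILDOG3 had 0 members without its replicate 2 (against 0.535% of all genes) and 2 without its replicate 1 (0.583% against 1.23%). Without Ler replicate 2 it had 20 (5.83% against 6.9%). NILDOG1 had between 0 and 8 when single arrays were left out. It had 8 without Ler replicate 2 (2.33% against 3.2%) and 6 without NILDOG6 replicate 1 (1.75% against 1.83%). Without NILDOG2 replicate 1 or NILDOG6 replicate 3 it had 2 (0.583% against 1.08% and 1.23%). It had 0 without any 1 of Ler replicates 1, 4 and 5 or NILDOG1 replicates 1, 2, 3 and 5, against 0.582% to 0.849%. The F test had 20 without Ler replicate 2 (5.83% against 7.59%). It had 7 (2.04%) without NILDOG2 replicate 3 or NILDOG3 replicate 1 or 3, against 3.06% to 3.31% of all genes. Without NILDOG2 replicate 2 or NILDOG3 replicate 2 it had 6 (1.75%), against 2.7% and 2.63%.

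ABCB19, an auxin efflux transporter, fell in both NILDOG1 and NILDOG3. Ler read 7.14, 6.22, 6.46, 7.04 and 7.0, NILDOG1 read 5.51, 5.76, 5.51, 6.12 and 5.47, and NILDOG3 read 5.31, 5.26 and 5.59. Every NILDOG1 and NILDOG3 array was below every Ler array. In limma, NILDOG1 was lower by -1.10 ± 0.25 (SE, adjusted p = 0.0321) and NILDOG3 by -1.39 ± 0.29 (SE, adjusted p = 0.0127). NILDOG2, at 6.54, 7.45 and 6.57, overlapped Ler. NILDOG6 replicates 2 and 3 read 5.78 and 5.66, inside the span of the NILDOG1 arrays, and replicate 1 read 7.08, among the highest Ler values. Over the 25 alternatives tried, 17 kept the NILDOG1 adjusted p under 0.05 (range 0.0042 to 0.33) and 22 kept that of NILDOG3 (0.00132 to 0.0876).

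AHP2, a histidine phosphotransfer protein of the cytokinin signalling chain, was lower in NILDOG3. Ler read 8.78, 7.64, 8.30, 8.52 and 8.11, and NILDOG3 read 7.11, 6.59 and 7.10, with no overlap. The difference was -1.34 ± 0.26 (SE, adjusted p = 0.00885, limma), and 24 of the 25 alternatives kept it under 0.05 (0.00103 to 0.089). NILDOG1, at 7.41, 7.81, 7.12, 7.63 and 7.17, was lower by -0.85 with an adjusted p of 0.089 in limma and overlapped the lowest Ler array. NILDOG2 read 8.02, 8.20 and 8.22. NILDOG6 replicates 2 and 3, at 7.05 and 6.74, lay within the span of the NILDOG3 arrays, and replicate 1 read 8.11, the same as a Ler array.

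TSO2, a small subunit of ribonucleotide reductase, which makes the building blocks of DNA, also fell in NILDOG3. Ler read 8.68, 7.65, 7.54, 8.66 and 8.19, NILDOG3 read 7.16, 6.53 and 6.96, and the difference was -1.26 ± 0.26 (SE, adjusted p = 0.0127, limma). NILDOG1 spanned 6.98 to 7.72 and NILDOG2 7.79 to 8.65. NILDOG6 read 7.78, 7.25 and 7.26, with replicates 2 and 3 below every Ler array by a mean difference of -0.89. The adjusted p of NILDOG3 stayed under 0.05 in 23 of 25 alternatives (0.00382 to 0.114).

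AOC3, an allene oxide cyclase of jasmonate synthesis, was the member with the lowest p of the F test (adjusted p = 0.00186, limma) and rose in NILDOG3. Ler read 4.54, 4.74, 4.88, 4.58 and 4.87, and NILDOG3 read 5.70, 5.58 and 5.14, all above Ler. The difference was 0.75 ± 0.15 (SE, adjusted p = 0.00832, limma), with 23 of 25 alternatives under 0.05 (0.00537 to 0.0764). NILDOG2, at 4.22, 4.45 and 4.48, lay below the Ler arrays with a difference of -0.34 and an adjusted p of 0.682, and NILDOG1 spanned 4.68 to 5.20. NILDOG6 read 4.78, 4.97 and 5.15.

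CYP81D11 came second in the F test (adjusted p = 0.00416, limma) with differences in opposite directions. NILDOG1 read 5.09, 5.90, 5.40, 5.26 and 6.07, all above the Ler range of 4.31 to 4.82, and NILDOG2 read 3.70, 3.56 and 4.12, all below it. Taken alone, neither difference passed, at 0.91 (adjusted p = 0.0873, limma) and -0.84 (adjusted p = 0.421, limma). CSLC04, a cellulose synthase-like protein, passed the F test as well (adjusted p = 0.0138, limma), with NILDOG1 at 3.07 to 3.80, below the Ler range of 3.91 to 4.45, and NILDOG2 at 4.08 to 4.62. The remaining F test calls were ABCB19 (adjusted p = 0.00427, limma), AHP2 (0.00981), TSO2 (0.0114), AT3G28040 (0.0156), AT3G27230 (0.0240), AT3G26950 (0.0350), AT3G28620 (0.0449) and CYP71B3 (0.0460). In Ler, AT3G28620 (2.69 to 2.89) and CYP71B3 (2.88 to 3.14) lay close to or below the lower quartiles of the arrays, 3.11 to 3.27. Without detection calls such levels cannot be told from background.

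Of the other NILDOG3 calls, AT3G27230, AT3G25580 and UGD2, a UDP-glucose dehydrogenase of cell wall sugar synthesis, were lower and AT3G26950 was higher. AT3G27230 was lower by -1.08 (adjusted p = 0.0443, limma), and this call stayed in 10 of 25 alternatives (adjusted p 0.00883 to 0.167). AT3G25580 was lower by -0.90 (adjusted p = 0.0201, limma) and UGD2 by -0.67 (adjusted p = 0.0292, limma). AT3G25580 was not low in NILDOG3 alone. Against 5.16 to 5.79 in Ler, all its arrays were lower in NILDOG1 (4.63 to 5.11, not called) and NILDOG6 (4.03 to 5.09). NILDOG2 (4.66 to 5.25) reached below Ler and overlapped it. AT3G26950 was higher by 0.56 (adjusted p = 0.0127, limma), and its 3 NILDOG6 arrays, at 7.16, 7.25 and 7.24, were all above the Ler range of 6.52 to 6.92. UGD2 was within or near the Ler range in NILDOG6, at 6.74, 6.99 and 7.29 against 6.90 to 7.60.

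**Figure D5:**
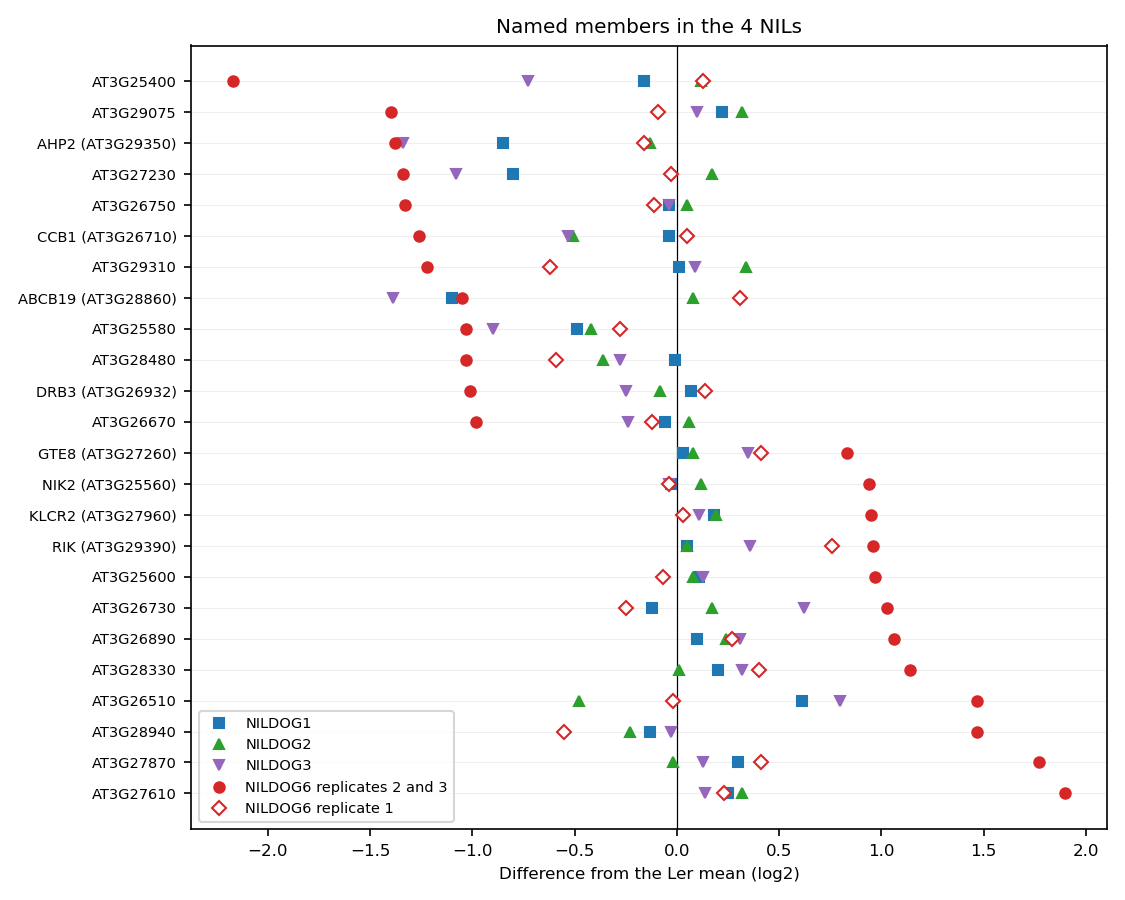
Difference from the Ler mean (log2, horizontal axis) of the 24 named members (rows) in NILDOG1, NILDOG2, NILDOG3, NILDOG6 replicates 2 and 3 (filled circle) and NILDOG6 replicate 1 (open diamond); all share the Ler arrays. For ABCB19, NILDOG1 at -1.10 and NILDOG3 at -1.39 lie beside NILDOG6 replicates 2 and 3 at -1.05, whereas for AT3G27870 and AT3G28940 the other NILs lie between -0.23 and 0.30.

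Over all members, every array outside the Ler range with a mean difference of at least 1 was found for 4 in NILDOG3 (1.17%, all lower, against 1.52% of all genes and 1.42% for lower genes alone), 1 lower in NILDOG1 (0.292% against 0.404%, and 0.296% for lower genes) and 0 in NILDOG2 (0.0% against 0.291%). Member differences spanned -1.39 to 0.80 in NILDOG3, -1.10 to 0.91 in NILDOG1 and -0.84 to 0.52 in NILDOG2. Of the 18 members at least 1 from Ler in NILDOG6 replicates 2 and 3, 7 had all 3 NILDOG3 arrays beyond Ler on the same side. All 5 NILDOG1 arrays were beyond it for 2, and all 3 NILDOG2 arrays for 0. Only AT3G29310 had no array of these NILs beyond Ler on that side. The same counts were not made over all genes that met the NILDOG6 criterion, and every comparison shares the Ler arrays. No link between the lines is therefore read from these counts. On either side, every NILDOG3 array was outside Ler for 10.8% of members and 11.0% of all genes.

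Roles were followed in 6 short lists, which cover a small part of the segment since most members have no name. The CYP71B family of cytochrome P450 genes had the most members among them. These genes lie in a row on this chromosome and oxidise plant metabolites. Of 19 listed, 15 were members. Their differences in NILDOG6 replicates 2 and 3 ran from -0.22 to 0.65 with a median of 0.20, against 0.01 over all genes. Of the 15, 10 were higher and 5 lower. In both arrays, 1 was outside the Ler range, where 23.6% of all genes were, and 0 were also at least 1 from Ler (2.39% of all genes). No change of the family is read from its median. Probes for near-identical genes of such a family may share signal, and the values of single family members are uncertain for that reason.

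Transcription factors counted 13 members of 15 listed, with differences from -0.89 to 0.29 and a median of -0.10. The 2 outside the Ler range were CRF11, a cytokinin response factor, at -0.89 and ICE1, a basic helix-loop-helix regulator of cold response and stomata, at -0.80. Chloroplast proteins counted 6 members of 8, from -1.26 to 0.07 with a median of -0.18. The 2 outside the range were CCB1 and LTA2, a subunit of the plastid pyruvate dehydrogenase, at -0.56. The 3 mitochondrial members ran from -0.22 to -0.09, none outside the Ler range. The 4 members of 6 in the terpene synthase list had a median of 0.07 with 1 outside the range. Over all genes 23.6% were outside it in both arrays, and these lists are too short for a share to be read. Of the 3 listed allene oxide cyclase genes, AOC3 was the member. Apart from AOC3 in NILDOG3, 0 of the members in these lists were called in NILDOG1, NILDOG2 or NILDOG3 in limma at an adjusted p of 0.05. PRXQ, a plastid peroxiredoxin, at 0.07, PHT2;1, a plastid phosphate transporter, at -0.09, and AT3G26770 at 0.28 are members that the study lists among its genes, and none had both NILDOG6 arrays outside the Ler range.

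The members sat lower on the arrays than the average gene. Their median level over all arrays was 4.17, against 4.75 over all genes, 31.2% of them were below the lower quartile of gene means and 16.9% above the upper. At the ends of the segment, the first members were AT3G25400 at -2.17 and AT3G25410 at 0.31, and the genes just before them were AT3G25280 at 0.29 and AT3G25290 at 0.70. The last members were AT3G29510 at 0.39 and AT3G29570 at 0.34. The genes just after were AFP3, a binding partner of the abscisic acid regulator ABI5, at 1.39, and AT5MAT, an anthocyanin malonyltransferase, at -0.11. AFP3 read 7.12, 8.09 and 8.01 in NILDOG6 against 6.52 to 6.96 in Ler, all 3 arrays above the range. The rows left out by the selection ran from -0.81 for PBB1, a proteasome subunit, to 1.05 for FUS3, a master regulator of seed maturation, which read 6.46 in replicate 2 and 4.85 in replicate 3.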

How the data were processed

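The deposited table holds log2 expression values made by the authors with RMA from ATH1 arrays, 1 row per locus code. RMA corrects background, quantile-normalises the probes and summarises each probe set, so arrays share a scale and low values are compressed. Depth does not apply to arrays, and the number of arrays limits the precision. The labels describe extraction from dry seeds, whereas titles, treatment and the paper give imbibition for 24 h. No genome build is named in the table, so no coordinates are given. Symbols are from RefSeq TAIR10.1, where 340 of 343 members matched a locus tag.

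Arrays were grouped by the genotype in their labels. limma 3.58.1 in R 4.3.3 (lmFit, eBayes, no covariates, all 19 arrays) was fitted to the whole table of 21313 genes, with Benjamini-Hochberg adjustment over all genes and thresholds of 0.0001 and 0.05. Counts, ranges and figures were made with Python 3.11.15. The fit was checked on simulated data with independent noise, in which 200 genes were shifted by 2 in every array of a NIL. At 0.0001 it recovered 91.0% to 97.5% of them. Most member differences were smaller and the NILDOG6 arrays did not lie together, so the check says nothing of the power for the members. The p-values measure the spread between bulked seed samples.

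Members named from NILDOG6 are the 12 highest and 12 lowest differences of replicates 2 and 3 from Ler with both arrays outside the Ler range; members named from the other NILs are those with the 6 lowest p-values of the F test, and other calls at 0.05 were named after their values were seen. The members, the role lists (CYP71B, allene oxide cyclases, terpene synthases, transcription factors, chloroplast and mitochondrial proteins) and the marker lists were chosen with earlier results of these data known. Alternatives were a filter at the 30th percentile of mean level, centring, quantile normalization, a prior trend, a block on the replicate number, the first 3 replicates alone and leaving out each array. Their use at the threshold of 0.05 and for the count in NILDOG6 replicates 2 and 3 was chosen after seeing the data.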

Additional observations from a re-analysis of the deposited data

Results flagged for a closer look

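Among 62 groups of 5 arrays examined for the named members, 4 held an array set far from the rest of its group, where chance gives about 1 in 20, or 3.1. AT3G26730 read 6.68 in Ler replicate 3 and 7.66 to 8.01 in the other Ler arrays. AT3G28180 (CSLC04) read 4.45 in Ler replicate 4 and 3.91 to 4.05 in the others. AT3G27610 read 2.50 in NILDOG1 replicate 5 and 3.25 to 3.47 in the other NILDOG1 arrays. AT3G28330 read 5.04 in NILDOG1 replicate 3 and 3.90 to 4.16 in the others, so that this array was close to NILDOG6 replicates 2 and 3 at 5.07 and 5.19.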

How the results depend on the processing

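No named member changed the sign of its NILDOG6 difference under the 5 alternatives run for it, which are those named in the next sentence. Leaving out NILDOG6 replicate 1 moved 10 of the 24 by more than the spread between replicates, using Ler replicates 1 to 3 moved 1, and centring, quantile normalization and the block moved 0. The 24 were chosen for large differences from Ler in the NILDOG6 arrays other than replicate 1. Kept signs, and larger differences without replicate 1, therefore follow largely from that choice. Neither is read as a test of these differences. Centring shifted the median difference of all genes from 0.01 to 0.14 in NILDOG3 and from 0.01 to 0.12 in NILDOG6. At the threshold of 0.0001, 0 members were called in NILDOG1, NILDOG2 and NILDOG3 under each alternative that kept the threshold. For NILDOG6 the count ran from 0 to 3 when 1 array was left out, and for the F test from 0 to 1, both highest without NILDOG6 replicate 1. Moving the threshold to 0.05 gave 1 member in NILDOG1, 8 in NILDOG3, 13 in NILDOG6 and 11 in the F test.

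At 0.05, leaving out 1 array gave 0 to 8 members in NILDOG1, 0 in NILDOG2 and 0 to 20 in NILDOG3. It gave 0 to 40 in NILDOG6 and 6 to 20 in the F test. The share of all genes moved as well. Without Ler replicate 2 it was 3.2% in NILDOG1, 6.9% in NILDOG3 and 7.59% in the F test. The members stood at 2.33%, 5.83% and 5.83%. Without NILDOG6 replicate 1, NILDOG6 had 11.7% of members against 8.39% of all genes. NILDOG1 had 2 with the low filter (0.922% against 1.8% of all genes) and 3 with the prior trend (0.875% against 1.22%). With replicates 1 to 3 only, NILDOG1 had 0 (against 0.371%) and NILDOG3 had 4 (1.17% against 2.25%). The cause was not tested.

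The plants were grown in randomized blocks, but no source says that an array's number is its block. Of 14 correlations between same-numbered deviations from the genotype means, 8 exceeded 0.1, short of all, so the arrays were not treated as paired. The correlations ran from -0.097 to 0.287 between NILDOG1 and Ler, -0.295 to 0.058 for NILDOG2, -0.003 to 0.255 for NILDOG3 and -0.082 to 0.373 for NILDOG6. With the replicate number as a block, 0 members were called at 0.0001 in each NIL and in the F test. NILDOG6 without its replicate 1 then had 2 (0.583% against 0.103% of all genes). At 0.05 the block gave 1 in NILDOG1 (0.292% against 1.59% of all genes), 0 in NILDOG2 (against 0.985%) and 10 in NILDOG3 (2.92% against 3.71%). It gave 27 in NILDOG6 (7.87% against 5.78%) and 22 in the F test (6.41% against 8.38%).

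The count of 3 members with every NILDOG6 array outside the Ler range and at least 1 from its mean became 0 at a difference of at least 2, and 2 to 18 when 1 array was left out, with 5 without Ler replicate 2 and 18 without NILDOG6 replicate 1. The median absolute difference of the members with all 3 arrays was 0.144, and 0.130 to 0.194 under its alternatives. NILDOG6 has 3 arrays that do not lie together, and low members have no detection call, so small differences of either kind were not resolvable here.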
